A study of Homo sapiens with 2 samples.

Results

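Splicing factors and RNA-binding proteins were taken by gene symbol from the deposited table of C4-2 cells treated with ebastine or vehicle. The symbols were those beginning with SRSF, SNRP, HNRNP, HNRP, SF3, LUC7L or U2AF, or with DDX, DHX, RBM, PRPF, LSM or CLK followed by a digit. The rule found 19 genes among the 1947 in the table, of which 17 encode proteins, 1 is a transcribed pseudogene (DDX12P) and 1 is a long noncoding RNA (RBM26-AS1). C4-2 is a widely used androgen-independent subline of the human prostate cancer line LNCaP, and ebastine is an antihistamine that blocks the H1 receptor. Polyadenylated RNA was sequenced from 1 vehicle culture and 1 ebastine culture, both of C4-2 cells at passage 10 to 15 in medium with serum; the sources used here give neither the dose nor the length of exposure.

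Splicing removes introns from nuclear transcripts. It is carried out by the spliceosome, which is assembled from small nuclear ribonucleoproteins (snRNPs), each a small nuclear RNA bound by a ring of Sm or LSm proteins and by proteins of its own. SR proteins and heterogeneous nuclear ribonucleoproteins (hnRNPs) bind the transcript and help to choose splice sites, CLK kinases phosphorylate SR proteins, and DEAD-box and DEAH-box helicases remodel RNA and protein complexes from transcription to export and ribosome assembly. A gene named here for an RNA-binding domain need not act in splicing.

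All 19 genes in the table were lower in the ebastine library as deposited. After the libraries were centred on the median ratio, which adds 0.34 on the log2 scale, 16 of them were lower. That shift follows from the split of the listed genes into lower and higher ones. It gives no estimate of an error in scale. Each difference was modest. Levels are FPKM (fragments per kilobase of transcript scaled to the mapped fragments of the library) and, unless stated otherwise, ratios are log2((FPKM in ebastine + 1)/(FPKM in vehicle + 1)), which understates the difference of low genes. Of the 18 that averaged at least 1 FPKM over both libraries, 18 were lower, beside 57.0% of the 1768 listed genes at that level, and 0 were higher, beside 43.0%. None of the 18 was lower by 1.5-fold or more, beside 18.6% of those genes, and none was higher by 1.5-fold or more, beside 9.67%. The ratios of the 18 ran from -0.49 to -0.29 with a median of -0.41, a 1.33-fold difference. The median over the 1768 genes, lower and higher together, was -0.32. Over the 1007 of them that were lower it was -0.47, further from 0 than the median of the members.

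The table limits what these counts mean. It holds only genes with a deposited p-value under 0.05, 14.2% of the 13714 genes the authors tested, so the genes here had already differed between the libraries and a gene outside it has no value. Among those 1768 genes the smallest absolute ratio was 0.23. With 1 library a group there is no replicate error and no p-value of the treatment, and the deposited p-values and q-values compare these libraries only.

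The cell line label was checked against luminal prostate markers. Of 8 luminal markers 5 were listed, 2 lower and 3 higher with ebastine. KLK3 (prostate-specific antigen) had 2476 FPKM in vehicle and 1599 FPKM in ebastine, and KLK2 had 465 and 272 FPKM. The higher ones were FOLH1 (495 and 840.4 FPKM), STEAP2 (76.9 and 120.7 FPKM) and ACPP (2.21 and 5.55 FPKM). Of 6 markers of other cell types VIM was listed, at 9.22 and 7.21 FPKM.

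**Figure D1:**
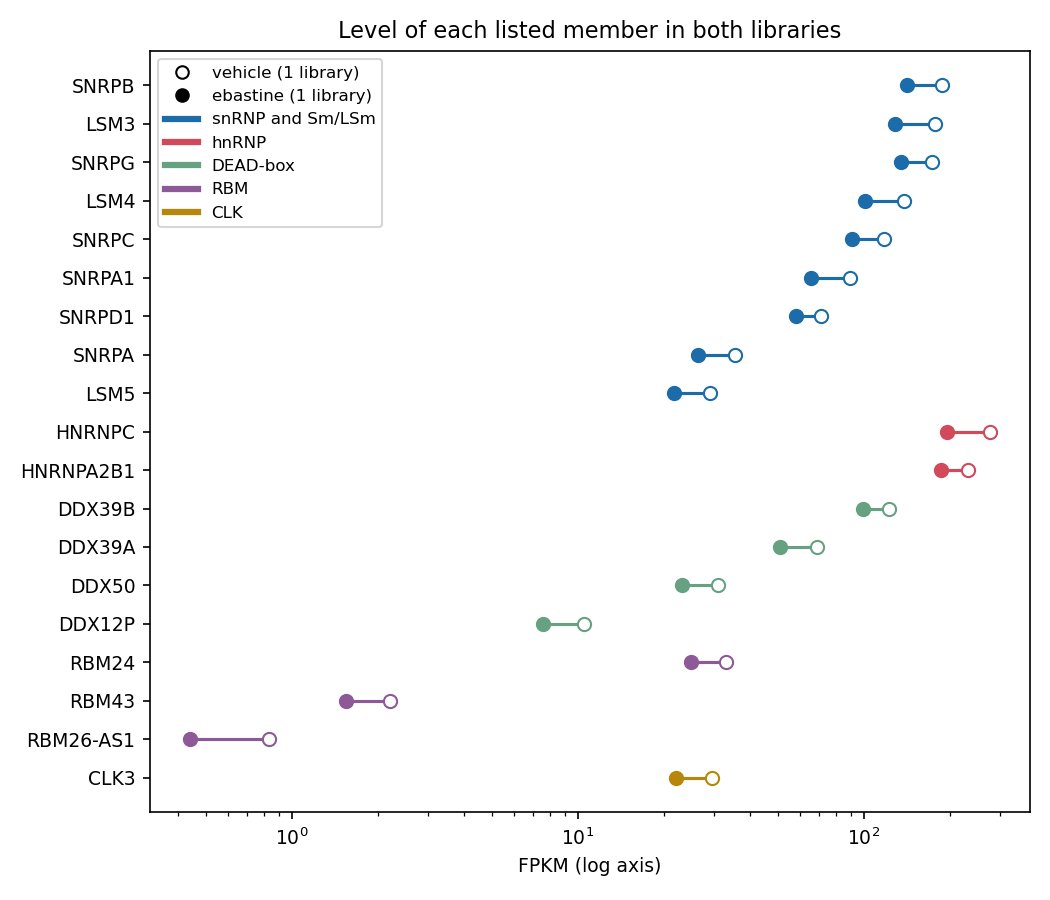
FPKM (log axis) of the 19 listed genes in the vehicle library (open circles) and the ebastine library (filled circles), coloured by class and without error bars because each group held 1 library. Every filled circle lies left of its open circle (16 of 19 would after centring), and the levels span from 0.835 FPKM for RBM26-AS1 to 276 FPKM for HNRNPC with vehicle.

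Proteins of the snRNPs made up the largest class in the table. Among protein-coding genes with these symbols in RefSeq, 6 of 12 SNRP genes and 3 of 13 LSM genes were listed. The 9 had lower levels in ebastine, and after centring 8 did, all but SNRPD1. Of the other 163 protein-coding genes that the symbols take, 8 were listed, or 4.91%. Those shares count every gene in the reference, while the number of these genes that entered the authors' test is not known, so no share here can be set directly against the 14.2% of tested genes. The summed level of the 9 snRNP and LSm genes was 1021 FPKM with vehicle and 768 FPKM with ebastine, or 75.3% of the vehicle level. Their ratios ran from -0.46 to -0.29 with a median of -0.41 as deposited, and the median was -0.09 after centring.

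The Sm proteins form the ring around the U1, U2, U4 and U5 small nuclear RNAs. Of the 7 genes of that ring, SNRPB, SNRPD1 and SNRPG were listed. Positions below are the spans the file reports in build hg19. SNRPB (chromosome 20, 2442281 to 2451499) had 188 FPKM in the vehicle library and 141 FPKM in the ebastine library, a 1.33-fold difference. SNRPG (chromosome 2, 70508506 to 70520869) had 173 and 135 FPKM. SNRPD1 (chromosome 18, 19192260 to 19210208) had 70.9 and 57.8 FPKM, 81.5% of the vehicle level, which was the smallest relative difference of the 19. The proportions between the 3 subunit transcripts differed little between the libraries. The SNRPB level was 2.65 times that of SNRPD1 with vehicle and 2.45 times with ebastine, and 1.08 and 1.05 times that of SNRPG. The rosters of the Sm ring, the LSm ring and the U1 and U2 proteins were written after the values were seen.

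Among the 6 listed SNRP genes, those for proteins of a single snRNP belonged to U1 and U2. The symbols do not take names beginning with SNRNP, some of which were listed among the further spliceosome components below. U1 recognises the 5′ splice site; of its 3 specific proteins SNRPA, which binds a stem-loop of U1 RNA, and SNRPC, which stabilises pairing with the splice site, were listed. SNRPA (chromosome 19, 41256759 to 41271297) stood at 35.6 and 26.4 FPKM and SNRPC (chromosome 6, 34724871 to 34741634) at 118 and 91.03 FPKM. U2 binds the branch point; of the protein pair A′ and B″ that its RNA carries, A′ (SNRPA1; chromosome 15, 101821715 to 101835460) was listed, and its level was 89.3 FPKM in vehicle and 65.3 FPKM in ebastine. Its ratio of -0.45 was the lowest of the 6 SNRP genes.

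LSm proteins form a ring on U6 RNA in the nucleus, and most of them share a related ring that promotes messenger RNA decay in the cytoplasm. Of the 7 genes of the nuclear ring, LSM3, LSM4 and LSM5 were listed, and these 3 are common to both rings. LSM3 (chromosome 3, 14220228 to 14239869) had 178 FPKM in vehicle and 129 FPKM in ebastine, and LSM4 (chromosome 19, 18417040 to 18434001) had 138 and 101 FPKM. Their ratios with the pseudocount, -0.46 and -0.45, were the lowest of the 19 after that of HNRNPC. By the deposited log2 fold changes, which carry no pseudocount, RBM26-AS1 (-0.921), RBM43 (-0.513) and DDX12P (-0.475) lay below LSM3 (-0.467). LSM5 (chromosome 7, 32524945 to 32534870) was less abundant, at 29.1 and 21.7 FPKM. The LSM3 level was 6.12 times that of LSM5 with vehicle and 5.94 times with ebastine, so the 3 transcripts were lower by similar factors in spite of their different levels.

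**Figure D2:**
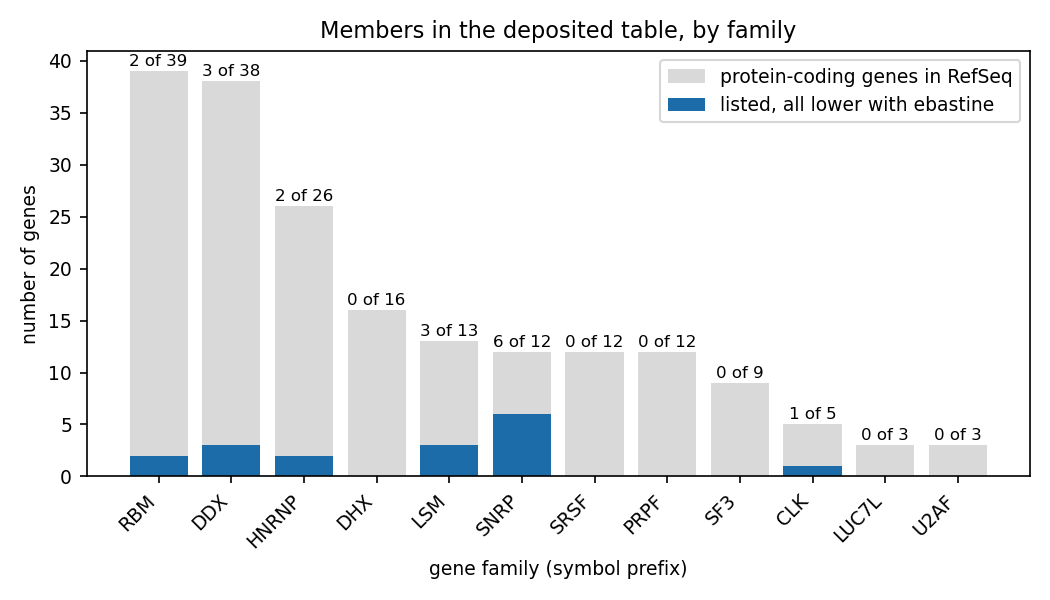
Number of protein-coding genes (vertical axis) for each symbol prefix in RefSeq (grey) and, of these, the number in the deposited table (blue). The SNRP family has 6 of 12 genes listed, and all 17 listed genes were lower as deposited (14 after centring), whereas DHX, SRSF, PRPF, SF3, LUC7L and U2AF have none.

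The hnRNP proteins coat nascent transcripts. HNRNPC, which binds uridine tracts, had the highest level and, with the pseudocount, the lowest ratio of the 19 genes. Without the pseudocount, the low genes RBM26-AS1 (52.8% of the vehicle level) and RBM43 (70.1%) lay below HNRNPC (70.9%). The HNRNPC transcript level was 276 FPKM in vehicle and 196 FPKM in ebastine (chromosome 14, 21677296 to 21737638), a ratio of -0.49 and a 1.41-fold difference. HNRNPA2B1, an RNA sorting and splicing factor, had the next highest level, 232 and 187 FPKM (chromosome 7, 26229556 to 26240413), and one of the smaller differences, at 80.4% of the vehicle level. The level of HNRNPC was 1.19 times that of HNRNPA2B1 with vehicle and 1.05 times with ebastine. HNRNPC alone made up 18.0% of the summed difference of 447 FPKM over the 19 genes, and the snRNP and LSm genes 56.5%. Of 26 protein-coding genes with the HNRNP prefix these 2 were listed.

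Of the genes with the DDX prefix, 3 coding genes and 1 pseudogene were listed. DDX39B (UAP56) and its paralog DDX39A couple splicing to messenger RNA export. DDX39A (chromosome 19, 14519610 to 14530195) stood at 68.4 and 51.1 FPKM, a 1.34-fold difference, and DDX39B at 123 and 99.2 FPKM, a 1.24-fold difference that turned direction after centring. DDX39B was thus 1.79 times as abundant as DDX39A with vehicle and 1.94 times with ebastine. DDX39B was placed on a haplotype contig of chromosome 6 with a span of 17.9 kb, longer than the gene, so neighbouring transcripts may contribute and reads may be divided between copies of the region. DDX50, a nucleolar helicase (chromosome 10, 70661034 to 70706603), stood at 31.0 and 23.1 FPKM. The pseudogene DDX12P (chromosome 12, 9570287 to 9600768) stood at 10.5 and 7.59 FPKM.

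RBM24, an RNA-binding protein known from muscle splicing, had 32.9 FPKM in vehicle and 24.8 FPKM in ebastine (chromosome 6, 17281809 to 17294099). RBM43 (chromosome 2, 152104728 to 152118389) was a low gene at 2.20 and 1.54 FPKM, 70.1% of the vehicle level. RBM26-AS1, a noncoding RNA antisense to RBM26, was the lowest of all at 0.835 and 0.441 FPKM (chromosome 13, 79980444 to 79998468). Its plain ratio of 1.89-fold was the largest of the 19, but it lies under the mean of 1 FPKM used for counts and its ratio with the pseudocount was -0.35. The strand setting of the counting is not given in the sources used here, so reads of RBM26-AS1 and RBM26 may not have been told apart. CLK3, a kinase of SR proteins, stood at 29.4 and 22.1 FPKM (chromosome 15, 74890843 to 74922542); the locus reported for it spans 31.7 kb, against 21830 bases for the gene in RefSeq.

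In 6 of the 12 symbol families no gene was listed. These families, SRSF, SF3, PRPF, DHX, LUC7L and U2AF, hold 55 protein-coding genes in RefSeq, among them the 12 SR proteins, the 9 SF3 genes of the U2 snRNP core and its relatives, and both subunits of the U2AF factor that reads the 3′ splice site. Their absence from the table means a deposited p-value of 0.05 or more, or no test, and no value of theirs was used.

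The authors' deposited table gives a q-value under 0.05 to 3 of the 19 genes (15.8%), beside 25.4% of its 1947 genes that were lower at that limit. That 25.4% counts higher genes in its denominator, while all 19 members were lower, so it understates the share among lower genes. The 3 members were HNRNPC (q = 0.0309), LSM4 (q = 0.0332) and LSM3 (q = 0.0357) in the authors' deposited table. The next was SNRPA1 at q = 0.0589, and the highest q-value was that of SNRPD1, 0.344, in the authors' deposited table. Larger differences were common in the table: of the 1007 lower genes that averaged at least 1 FPKM, 45.9% had a ratio below that of HNRNPC.

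**Figure D3:**
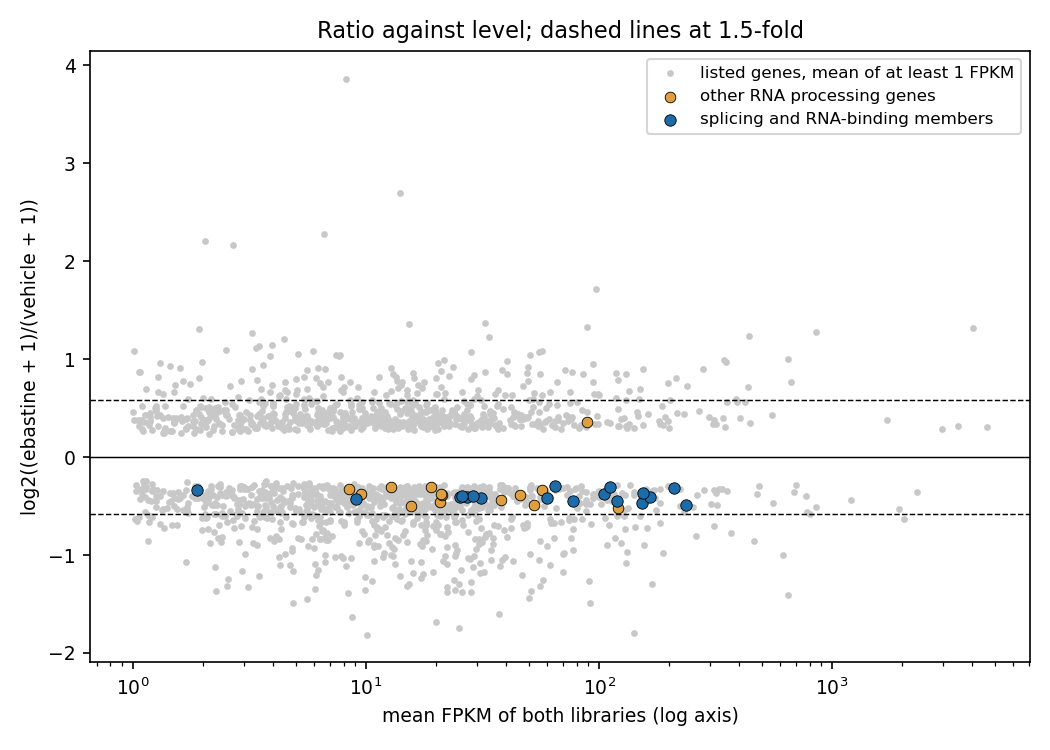
Log2 ratio of ebastine over vehicle with a pseudocount of 1 FPKM (vertical axis) against the mean FPKM of both libraries (horizontal log axis) for the 1768 listed genes that averaged at least 1 FPKM, with the 18 splicing and RNA-binding members in blue and 14 other RNA processing genes in orange. The members lie between -0.49 and -0.29, inside the dashed 1.5-fold lines, and the empty band around 0 is the part of the table removed by the p-value limit.

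The members were abundant transcripts. The median of the mean level was 70.8 FPKM over the 18 members and 12.5 FPKM over the 1768 genes, and 12 of the 19 exceeded 30.7 FPKM, the upper quartile of those genes. Among listed genes that averaged at least 20 FPKM 60.0% were lower with ebastine, and among genes within 1.5-fold 53.5%. The order of levels was nearly the same in both libraries, with 17 of 19 genes at the same rank; LSM3 and SNRPG exchanged places. The spread of the ratios with the pseudocount was narrow, 0.20 on the log2 scale from end to end for all 19. Without the pseudocount, the deposited log2 fold changes of the 19 ran from -0.921 (RBM26-AS1) to -0.295 (SNRPD1). The p-value limit also removes values near 0. The summed level in ebastine was 75.6% of that in vehicle.

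The ratios lie close together, so a change of scale moves all of them, and centring turned the direction of 3 of the 19. Setting the upper quartiles of the listed genes equal, which adds 0.21 on the log2 scale, left all 19 lower with a median of -0.21. Centring on the median ratio over listed genes that averaged at least 10 FPKM, which adds 0.34, left 16 of 19 lower with a median of -0.09. Of the 18 members 15 were then lower, beside 52.5% of the 1768 genes. The 3 with a ratio above 0 were SNRPD1 (0.040), DDX39B (0.028) and HNRNPA2B1 (0.020). The lowest centred ratios of the 18 were those of HNRNPC (-0.16), LSM3 (-0.13) and DDX12P (-0.13). Both scalings were computed on the filtered table, which lacks ratios near 0. With 57.0% of the 1768 genes lower, the median ratio lies among the lower genes. The centring shift therefore follows from that split and gives no estimate of an error in scale.

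**Figure D4:**
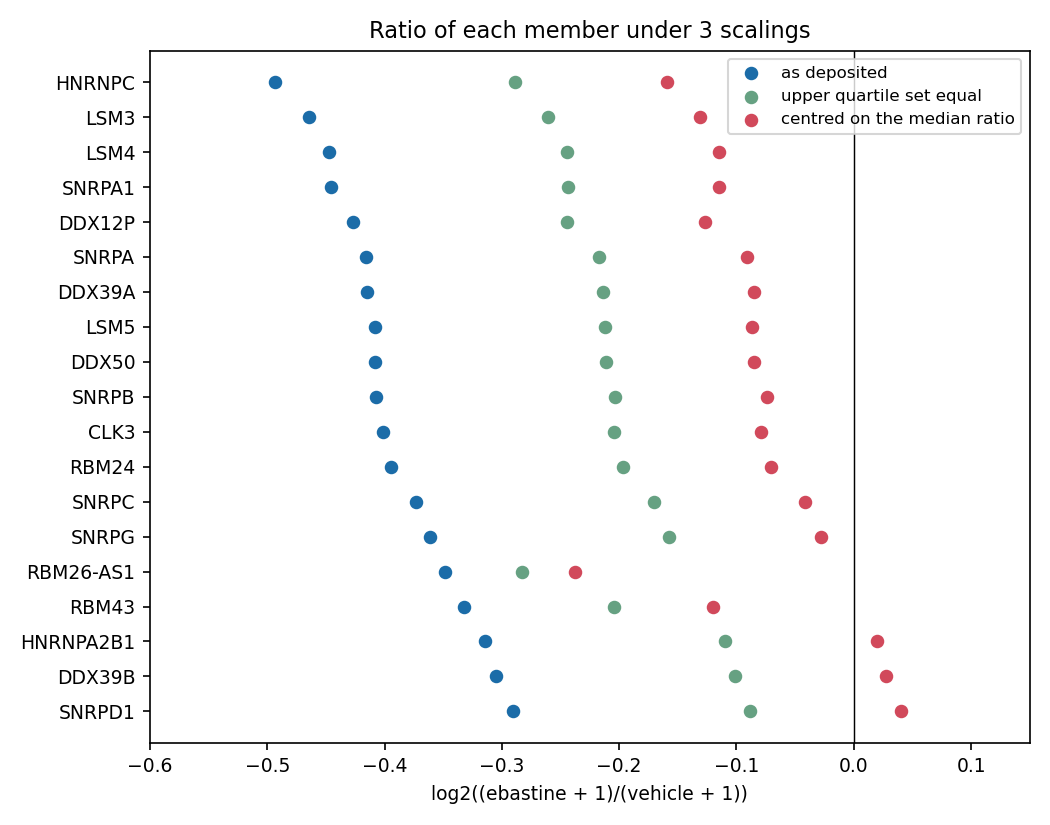
Log2 ratio (horizontal axis, pseudocount of 1 FPKM) of each of the 19 genes as deposited (blue), with upper quartiles set equal (green) and centred on the median ratio (red). SNRPD1, DDX39B and HNRNPA2B1 lie right of 0 after centring, and the other 16 remain left of it.

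Other genes of RNA processing that the symbols do not take were examined by 5 lists of 208 genes. Of these 14 were listed, 13 lower and 1 higher with ebastine, with a median ratio of -0.38. Beside them, 57.0% of the 1768 listed genes were lower, with a median of -0.32 over all 1768. Over the 1007 lower ones the median was -0.47. The number of the 208 that the authors tested is unknown, so 14 of 208 cannot be set against the 14.2% of all tested genes that were listed. Centring moved the median of the 14 to -0.06 and left 11 of them lower, beside 52.5% of the 1768 genes, with CWC22 and CDC5L just above 0 (0.0049 and 0.014). Of 67 further spliceosome components 8 were listed, 7 lower and 1 higher; CWC22 and CDC5L are the lower ones that centring turned. PPIH, a cyclophilin of the U4/U6 snRNP, stood at 61.8 and 43.8 FPKM, and SNRNP48, a protein of the minor U11/U12 snRNP, at 24.2 and 17.4 FPKM. CTNNBL1, which associates with the spliceosome, stood at 24.1 and 18.2 FPKM. FAM50A was the gene that was higher, at 77.6 and 100.02 FPKM, a 1.29-fold difference.

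Of 28 genes of the exon junction complex, export and decay 3 were listed and all 3 were lower, beside the same 57.0% as deposited and 52.5% after centring; 3 genes are too few to set against these shares. The export adaptor ALYREF, which works with DDX39B, had 142 FPKM in vehicle and 98.5 FPKM in ebastine. With the pseudocount its ratio of -0.52 was lower than that of any of the 19 members. Without the pseudocount the difference was 1.44-fold for ALYREF and 1.89-fold for the member RBM26-AS1. The authors' deposited table gives ALYREF q = 0.0155. THOC3, a subunit of the THO complex that also recruits DDX39B, stood at 51.9 and 39.6 FPKM, and MAGOHB, a core protein of the exon junction complex, at 9.54 and 7.41 FPKM. Of 16 genes of the SMN complex and snRNP assembly GEMIN2, which holds Sm proteins before they are loaded onto small nuclear RNA, was listed at 18.5 and 12.7 FPKM, a ratio of -0.50. Of 75 other splicing regulators RSRC1 (43.7 and 32.0 FPKM) and PTBP3 (10.8 and 8.12 FPKM) were listed, both lower. None of the 22 cleavage and polyadenylation genes was in the table.

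Promoter sequence of the members, which were all lower as deposited, was compared as a description. A shared cause of their lower levels was not tested. RefSeq promoters (build GRCh38.p14) were matched for 16 of the 19 genes by symbol; DDX12P, RBM43 and SNRPD1 had no entry used. The 250 bases before the first start given for each gene were searched on both strands for 5 short motifs: the ETS core (CCGGAA), the CCAAT box (CCAAT), the GC box (GGGCGG), the cell cycle homology region of mitotic promoters (TTTGAA) and the E-box (CACGTG). No match of 1 motif overlapped a match of another in these 16 promoters. The windows of the 3 genes with a q-value under 0.05 and of the 3 SNRP genes with the lowest ratios follow, 5′ to 3′ in the direction of the gene, with ETS cores (ccggaa or ttccgg) and CCAAT boxes (ccaat or attgg) in capitals.
HNRNPC (chr14:21269443-21269692, minus strand): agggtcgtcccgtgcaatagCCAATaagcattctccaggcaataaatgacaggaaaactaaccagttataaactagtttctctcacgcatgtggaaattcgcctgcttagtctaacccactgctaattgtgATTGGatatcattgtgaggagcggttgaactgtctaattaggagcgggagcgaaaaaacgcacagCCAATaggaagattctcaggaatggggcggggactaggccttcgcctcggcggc
LSM3 (chr3:14178567-14178816, plus strand): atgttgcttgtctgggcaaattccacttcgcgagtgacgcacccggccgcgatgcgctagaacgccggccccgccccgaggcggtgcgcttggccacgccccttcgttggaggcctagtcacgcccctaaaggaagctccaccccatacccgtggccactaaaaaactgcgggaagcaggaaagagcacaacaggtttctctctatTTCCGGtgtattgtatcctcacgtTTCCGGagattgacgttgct
LSM4 (chr19:18323077-18323326, minus strand): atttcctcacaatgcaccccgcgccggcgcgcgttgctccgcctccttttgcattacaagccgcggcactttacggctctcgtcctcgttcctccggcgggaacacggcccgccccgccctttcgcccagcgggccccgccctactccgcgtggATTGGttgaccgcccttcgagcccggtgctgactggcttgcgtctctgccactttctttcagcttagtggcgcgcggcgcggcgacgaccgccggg
SNRPA1 (chr15:101295249-101295498, minus strand): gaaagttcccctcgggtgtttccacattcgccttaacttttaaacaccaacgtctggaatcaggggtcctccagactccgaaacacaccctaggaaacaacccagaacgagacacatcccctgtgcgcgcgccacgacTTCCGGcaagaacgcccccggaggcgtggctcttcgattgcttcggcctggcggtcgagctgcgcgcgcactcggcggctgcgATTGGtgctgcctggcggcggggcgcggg
SNRPA (chr19:40750953-40751202, plus strand): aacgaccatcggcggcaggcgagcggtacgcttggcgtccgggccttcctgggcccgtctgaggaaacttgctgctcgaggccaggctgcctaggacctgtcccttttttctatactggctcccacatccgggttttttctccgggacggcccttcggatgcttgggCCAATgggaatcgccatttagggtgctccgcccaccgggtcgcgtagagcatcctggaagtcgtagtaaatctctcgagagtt
SNRPB (chr20:2470790-2471039, minus strand): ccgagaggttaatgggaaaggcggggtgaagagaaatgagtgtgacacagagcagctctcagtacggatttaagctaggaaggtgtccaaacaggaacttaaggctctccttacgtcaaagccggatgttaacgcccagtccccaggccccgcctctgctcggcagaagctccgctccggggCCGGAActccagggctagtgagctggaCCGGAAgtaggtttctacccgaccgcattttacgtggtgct

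The ETS core was present in 8 of the 16 member promoters, among them LSM3, SNRPA1, SNRPB, SNRPC and SNRPG, beside 20.9% of the 1285 listed genes matched and 14.8% of the 27305 promoters in the table. LSM3 and SNRPB each held 2 matches. The CCAAT box was present in 9 of 16 (56.2%), beside 42.2% of listed genes and 33.0% of all promoters; HNRNPC held 3 matches. The GC box was present in 6 of 16 (37.5%), beside 69.9% of listed genes and 42.3% of all promoters. All promoters include those of noncoding genes. Of 15843 protein-coding genes, searched at the first start only, 19.3% held the ETS core, 34.5% the CCAAT box and 56.0% the GC box. The mitotic motif was found in 1 (LSM5), and the E-box in none, beside 11.9% and 9.81% of listed genes and 13.6% and 6.49% of all promoters. With every start of a gene searched, the ETS core was in 10 of 16 members, 25.4% of listed genes and 17.2% of all. The CCAAT box was then still in 9 of 16 members, but in 49.1% of listed genes and 37.0% of all. The GC box was then in 8 of 16 members, 77.0% of listed genes and 46.2% of all, so its share in members lay below that of all promoters with the first start and above it with every start. A match describes these letters only and is not evidence of a bound factor.

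Several of these genes have close copies that could share reads. By symbol, RefSeq holds 20 pseudogenes each of SNRPC and SNRPG, 9 of HNRNPC and 5 of LSM3. The longest GENCODE transcript of DDX12P shared 57.7% of its 50-base stretches with other genes, 46.2% with AC009533.1 and 43.8% with the helicase gene DDX11, so its value may hold reads of either. DDX39B shared 18.3%, nearly all with a readthrough transcript of its own locus, HNRNPC 10.9%, DDX50 10.8% and SNRPG 9.58%. DDX39A, HNRNPA2B1, LSM4 and RBM24 shared none, so DDX39A and DDX39B have no 50-base stretch in common in their longest transcripts. How reads with several matches were treated by the authors' software is not stated in the labels or the file. The longest transcripts of the 9 snRNP and LSm genes had a median length of 1908 bases, against 3470 bases over 1625 matched listed genes.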

How the data were processed

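RNA sequencing of polyadenylated RNA was compared between 1 vehicle and 1 ebastine library. The submitters' processing notes name TopHat2, Cuffdiff and the hg19 build and give no version. The deposited FPKM values, log2 fold changes, p-values and q-values come from the authors' Cuffdiff comparison, per the file headers; the authors' test statistic, a score, was not used. The number of tested genes, 13714, was recovered from the deposited q-values, ranks and p-values. Without counts the depth stays unknown and no counting interval can be given. Ratios used a pseudocount of 1 FPKM, counts a minimum mean of 1 FPKM and a limit of 1.5-fold. Positions are hg19 and 1-based; the deposited starts are 0-based. Counting was tested on simulated data. Members and lists were chosen with earlier results of these data known. Every member may be named; of other lists, up to 3 genes with the largest absolute ratio and 2 against the median. RNA lists were matched by symbol and older symbol. Python 3.11.15, pandas 2.3.3, numpy 2.4.6 and matplotlib 3.10.9 were used. Alternatives covered the pseudocount, the minimum mean, the fold limit, 3 scalings, the q-value limit and unusual loci.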

Additional observations from a re-analysis of the deposited data

How the results depend on the processing

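The 18 members that averaged at least 1 FPKM were lower, none by 1.5-fold, with pseudocounts of 0.1 and 5 FPKM, equal sums and equal upper quartiles, and none passed 1.5-fold or 2-fold in either direction under any alternative tried. Centring on the median ratio left 15 lower and 3 higher, with medians of -0.0852 for members and -0.0865 for the snRNP and LSm class, and gave 3 higher genes and a median of -0.0609 for the other RNA processing genes. Equal upper quartiles gave medians of -0.2076 for members, -0.2119 for the class and -0.1861 for the other genes. With a deposited q-value under 0.05 only, 3 members were lower, and 5 of the other genes were lower and 0 higher, which follows from the smaller number of genes. The limit to protein-coding members, chosen after seeing the data, left 17 of 17 lower with a median of -0.41. Leaving out DDX39B, on an alternative haplotype, left 17 lower. No paired analysis was possible because each group held 1 library. The unknown depth and the absent replicates limit every value to a difference between these libraries.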
